A study of Danio rerio with 4 samples.

Results

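The transcripts described here differed most between the 2 mutant libraries of the study while holding a steady level in the 2 wild-type libraries. They were chosen by their own TPM values. TPM is a transcript's share of a library after division by its length, scaled to 1000000 per library. A transcript was rankable when it had at least 5 TPM in both wild-type libraries, a larger-to-smaller wild-type ratio of at most 1.5 and at least 1 TPM in both mutant libraries, and when it was not among the 150 most abundant by mean wild-type TPM. Of 57775 transcripts listed, 9919 were rankable, and the 200 with the largest absolute log2 ratio of mutant replicate 2 to mutant replicate 1 are the members. The ratio itself is therefore a description and is not tested. A comparison of 1 mutant library with the other has no replicate on either side.

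RNA came from whole zebrafish larvae bred in the AB background from crosses between znf574+/- carriers and sorted by appearance 7 days after fertilization. The mutant group, znf574-/-, had 2 libraries. The wild-type group, siblings that are znf574+/+ or znf574+/-, also had 2 libraries. No group received a treatment. The labels state neither the number of larvae per library nor whether replicates came from separate clutches, so p-values reflect how far these libraries spread and nothing wider, and that spread may be technical. The mutant libraries held 31653921 (replicate 2) and 42901442 (replicate 1) estimated counts, and the wild-type libraries 35764394 and 36320540.

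Ribosomes are built from ribosomal RNA and ribosomal proteins through many intermediates, and cells remove intermediates that fail to mature. The series names ZNF574 as a factor in that quality control. Poly(A) RNA of a whole larva sums over all of its organs, so a transcript made in a single organ follows that organ's share of the RNA as well as the level within its cells. Fewer cells of a type and less RNA per cell cannot be told apart in these libraries. The files identify transcripts by Ensembl identifier without gene names, and 0 of the identifiers matched the gene tables used here. Members are therefore described by length, level and rank, with the 2 of the largest ratio in each direction given by identifier. Gene roles, positions and sequences of the members were not analysed here.

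Of the 200 members, 157 were higher in mutant replicate 2 and 43 were higher in mutant replicate 1. Among all rankable transcripts the balance was the other way, with 3420 of 9919, or 34.5%, higher in mutant replicate 2. The larger of the 2 mutant values exceeded the smaller by a median of 4.37-fold over the members, against 1.17-fold over the rankable transcripts. The ratio was 4-fold or more in 122 members, 8-fold or more in 43 and 16-fold or more in 18, of which 17 were higher in mutant replicate 2. The member at rank 200 differed 2.96-fold, with 3.72 TPM in mutant replicate 2, 1.26 TPM in mutant replicate 1, and 7.49 and 5.04 TPM in wild type. The next transcript, just outside the list, differed 2.95-fold, with 5.52 and 1.87 TPM in mutant replicates 2 and 1, and 7.91 and 8.14 TPM in wild type.

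**Figure D1:**
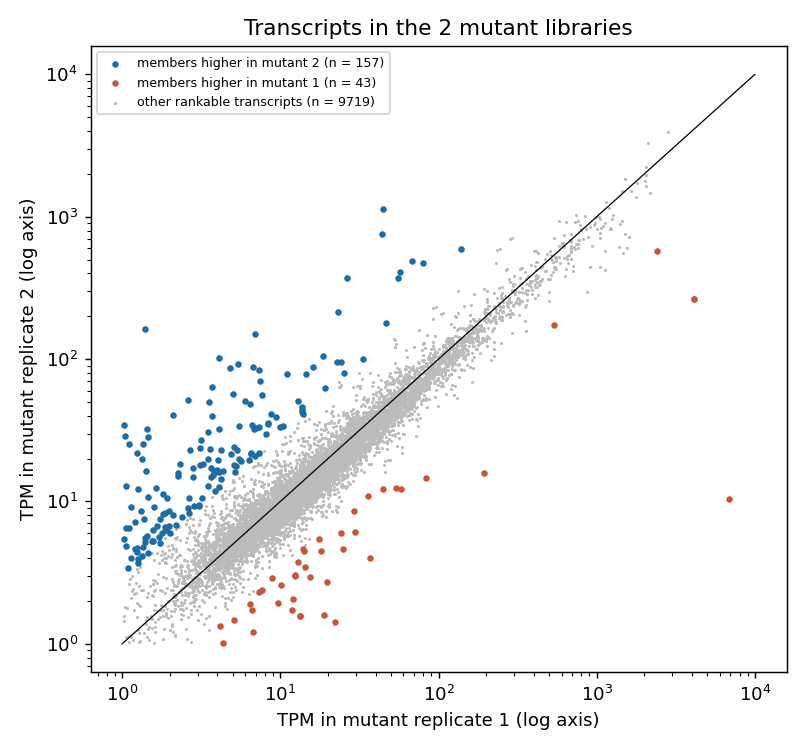
TPM in mutant replicate 2 (vertical log axis) against TPM in mutant replicate 1 (horizontal log axis) for the 9919 rankable transcripts, with the line of equal levels. The 157 members above the line and the 43 below it bound a band that holds the other 9719. The member farthest below the line had 6859 TPM in mutant replicate 1 and 10.3 TPM in mutant replicate 2.

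Departure from the wild-type level was mostly on the side of mutant replicate 1. In 125 of the 200 members only mutant replicate 1 lay at least 2-fold from the mean wild-type level, in 30 only mutant replicate 2 did, in 44 both did and in 1 neither did. Among the 9719 rankable transcripts that are not members, 762 departed only in mutant replicate 1, 392 only in mutant replicate 2 and 1428 in both. Members were chosen for a wide mutant ratio, so a departure in at least 1 mutant library largely follows from the rule. The commonest pattern was held by 115 members, or 57.5%. It was a level within 2-fold of wild type in mutant replicate 2 and at least 2-fold below it in mutant replicate 1. Of the 9719 non-members 343, or 3.53%, held this pattern, and 341 held the same pattern with the mutant libraries exchanged. A rise of at least 2-fold was seen only in mutant replicate 1 in 419 non-members, and only in mutant replicate 2 in 51. These 115 had medians of 19.4 TPM in mutant replicate 2, 3.69 TPM in mutant replicate 1, and 22.9 and 19.0 TPM in wild type. By the definition of the pattern, their summed level is lower in mutant replicate 1. It was 7436 TPM in mutant replicate 2 and 1018 TPM in mutant replicate 1, against 9623 and 8199 TPM in the wild-type libraries. Abundant transcripts weighed heavily in this sum: those at ranks 5, 17 and 107 had 1135, 755 and 595 TPM in mutant replicate 2. A further 34 members higher in mutant replicate 2 were at least 2-fold below wild type in both mutant libraries, with summed levels of 1137 TPM in mutant replicate 2 and 182 TPM in mutant replicate 1, against 4876 and 4473 TPM in wild type.

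**Figure D2:**
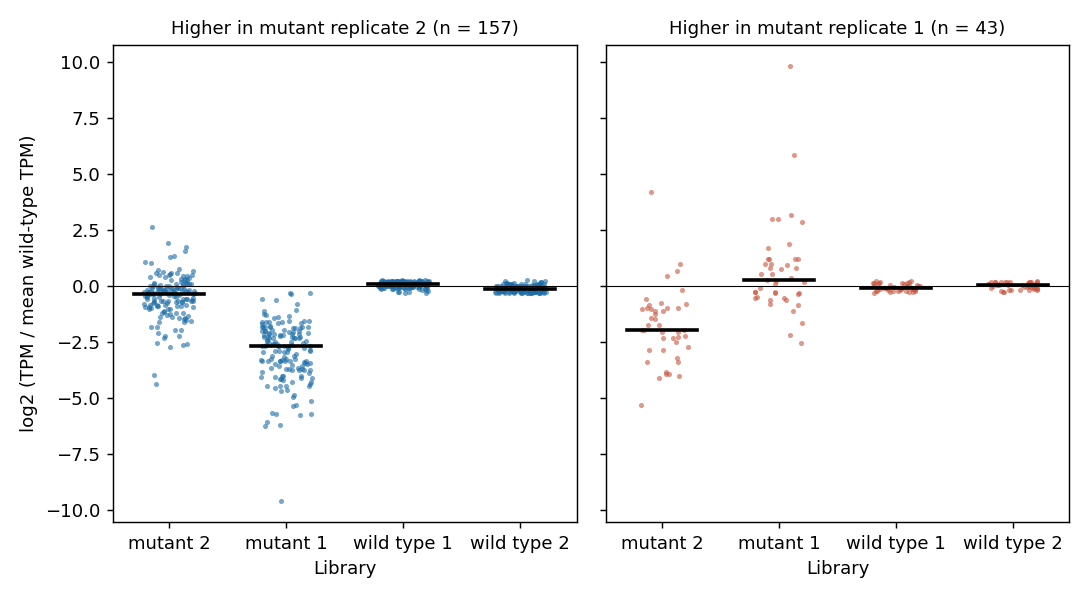
Each point is 1 member, placed by the log2 of its TPM over the mean wild-type TPM, in the 2 mutant and 2 wild-type libraries; bars are medians. For the 157 members higher in mutant replicate 2 the medians are -0.33 in mutant replicate 2 and -2.68 in mutant replicate 1, and for the 43 others -1.94 in mutant replicate 2 and 0.26 in mutant replicate 1; the narrow wild-type columns follow from the limit of 1.5-fold.

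The largest ratio in this direction belonged to ENSDART00000101845.5, of 823 bases. It had 162.9 TPM in mutant replicate 2 and 1.39 TPM in mutant replicate 1, against 996 and 1123 TPM in wild type. The 2 mutant values do not overlap those of wild type, and mutant replicate 1 lies far below mutant replicate 2. The mutant libraries differed 117-fold, with a 95% interval of 84.1- to 167-fold from the estimated counts of 3318 in mutant replicate 2 and 35.9 in mutant replicate 1. Such intervals, exact binomial on rounded estimates, cover counting error only. They leave out any error from the sharing of reads among transcripts, which is described below. Averaged by genotype, it had 82.2 ± 114 TPM in mutants and 1060 ± 89.5 TPM in wild type (SD, n = 2 each), and mutant over wild type was -3.83 on the log2 scale with an approximate SE of 2.07 (edgeR adjusted p = 0.26). Over 18 alternative fits, some with a library left out, this log2 fold change ran from -9.79 to -2.84.

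The second, ENSDART00000139208.2, of 549 bases, had 34.3 TPM in mutant replicate 2 and 1.02 TPM in mutant replicate 1, against 42.0 and 62.8 TPM in wild type. Mutant replicate 2 was 0.65 of the mean wild-type level and mutant replicate 1 was 51.2-fold below it. The 2 mutant values differed 33.5-fold, with a counting interval of 20.7- to 58.0-fold. Estimated counts were 450 in mutant replicate 2 and 17.0 in mutant replicate 1, where the level lay just above the minimum of 1 TPM. For both of these transcripts the mutant libraries lay farther apart on the log2 scale than the genotypes did, here 5.07 between the mutants, and -1.75 for mutant over wild type with an approximate SE of 1.49 (edgeR adjusted p = 0.46). The log2 fold change of this second transcript ran from -5.91 to -0.77 over 18 alternative fits.

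Of the 29 members with 100 TPM or more in wild type, 16 were near wild type in mutant replicate 2 and low in mutant replicate 1, 9 were low in both mutant libraries, 3 were high in mutant replicate 1 only and 1 was low in mutant replicate 2 only. A 776-base transcript, at rank 5, had 1135 TPM in mutant replicate 2 and 44.3 TPM in mutant replicate 1, against 760 and 829 TPM in wild type. A 510-base transcript at rank 17, the most abundant member in wild type, had 755 TPM in mutant replicate 2 and 44.1 TPM in mutant replicate 1, against 1303 and 1229 TPM in wild type. In these 2, mutant replicate 2 lay within 2-fold of wild type and mutant replicate 1 lay far under it. An 840-base transcript at rank 107 had 595 TPM in mutant replicate 2 and 139 TPM in mutant replicate 1, against 947 and 841 TPM in wild type. A 2116-base transcript at rank 57 was low in both mutants, with 373 TPM in replicate 2 and 55.2 TPM in replicate 1, against 955 and 832 TPM in wild type. Only 6 members were at least 2-fold above wild type in mutant replicate 2 and near it in mutant replicate 1. The first of these, of 1028 bases at rank 35, had 215 TPM in mutant replicate 2 and 23.0 TPM in mutant replicate 1, against 35.0 and 34.8 TPM in wild type.

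The 43 members higher in mutant replicate 1 fell mainly into 2 patterns. In 24 of them mutant replicate 2 was at least 2-fold below wild type while mutant replicate 1 stayed within 2-fold, with summed levels of 86 TPM in mutant replicate 2 and 532 TPM in mutant replicate 1, against 466 and 514 TPM in wild type. In 10 of them mutant replicate 1 was at least 2-fold above wild type while mutant replicate 2 stayed within 2-fold. Of the other 9, 4 were low in both mutant libraries, 3 were low in mutant replicate 2 and high in mutant replicate 1, 1 was high in both and 1 was within 2-fold of wild type in both.

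The largest ratio of all 200 was that of ENSDART00000142582.3, of 1304 bases, with 10.3 TPM in mutant replicate 2 and 6859 TPM in mutant replicate 1, against 7.27 and 7.92 TPM in wild type. A single library stands apart, and the other 3 lie between 7.27 and 10.3 TPM. Mutant replicate 1 exceeded mutant replicate 2 by 665-fold, with a counting interval of 598- to 741-fold, from 286900 estimated counts (to 4 digits) against 341. Mutants averaged 3435 ± 4843 TPM and wild type 7.60 ± 0.46 TPM (SD, n = 2 each), and the difference between genotypes did not pass the test (8.57 on the log2 scale, approximate SE 3.21, edgeR adjusted p = 0.14). Over 19 alternative fits, some with a library left out, its log2 fold change ran from 0.31 to 9.61. This 1 transcript made up 6859 of the 18936 TPM that the 43 members summed to in mutant replicate 1. Together with the 3 next highest in mutant replicate 1, at ranks 20, 21 and 112, it made up 17462 TPM. The other 39 summed to 349 TPM in mutant replicate 2 and 1473 TPM in mutant replicate 1, against 759 and 810 TPM in wild type.

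The other identified member in this direction, ENSDART00000144100.3, of 3069 bases, had 1.42 TPM in mutant replicate 2 and 22.1 TPM in mutant replicate 1, against 19.6 and 26.7 TPM in wild type. Mutant replicate 1 lay inside the wild-type range, and mutant replicate 2 was 16.3-fold below the wild-type mean. The mutant libraries differed 15.6-fold (counting interval 12.9 to 19.0). Mutant over wild type was -1.23 on the log2 scale with an approximate SE of 1.24 (edgeR adjusted p = 0.53). It ran from -4.18 to -0.29 over 19 alternative fits. Next in rank came a pair of 507-base transcripts with the same values in all 4 libraries, at 264.5 TPM in mutant replicate 2 and 4104 TPM in mutant replicate 1, against 568 and 461 TPM in wild type. Another pair, of 303 bases, also shared its values, with 1.56 TPM in mutant replicate 2 and 13.3 TPM in mutant replicate 1, against 13.9 and 18.5 TPM in wild type. Each pair counts as 2 members although the files do not separate its transcripts. The member of this direction with the highest mean wild-type level, of 1953 bases at rank 112, had 577 TPM in mutant replicate 2 and 2394 TPM in mutant replicate 1, against 564.5 and 748.5 TPM in wild type.

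**Figure D3:**
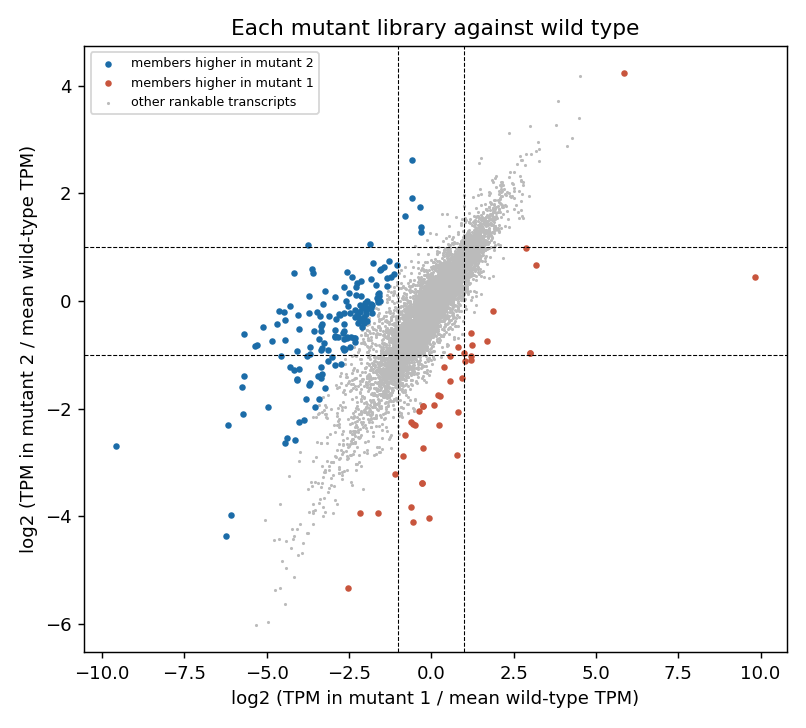
The log2 of TPM over the mean wild-type TPM in mutant replicate 2 (vertical) against that in mutant replicate 1 (horizontal) for rankable transcripts, with dashed lines at 2-fold. Of the 157 members higher in mutant replicate 2, 115 lie in the left middle field, low in mutant replicate 1 and near wild type in mutant replicate 2; of the 43 others, 24 lie in the lower middle field and 10 in the right middle field.

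Length was lower in the members. The rule did not use length directly. A transcript's length cancels in the ratio that ranked it. Length entered only through the TPM limits, which all rankable transcripts met. The members' median length was 828 bases, against 1815 bases for the rankable transcripts. With counts scaled to library size in place of TPM, the list's median was 1332 bases. The median of the transcripts rankable on that scale is not given here. With whole estimates only, explained below, the list's median was 1373 bases, against 1716 bases for the transcripts ranked. Under the other ways of choosing the list, its median ran from 726 to 866 bases. The 157 members higher in mutant replicate 2 had a median of 823 bases, and the 43 higher in mutant replicate 1 a median of 970 bases. Of the rankable transcripts of up to 500 bases 24 of 369, or 6.50%, were members, and of those of 501 to 1000 bases 109 of 1830, or 5.96%. The share was 1.32% from 1001 to 2000 bases, 0.54% from 2001 to 4000 bases and 0.48% above 4000 bases. Up to 1000 bases 110 members were higher in mutant replicate 2 and 23 in mutant replicate 1, and above 4000 bases the numbers were 3 and 3. Length also moved with the mutant ratio over all rankable transcripts: the median log2 ratio of mutant replicate 2 to mutant replicate 1 was 0.05 in both classes up to 1000 bases, -0.12 from 1001 to 2000 bases, -0.16 from 2001 to 4000 bases and -0.18 above. The part of this trend, and of the lower depth of mutant replicate 2, in the choice of members was not tested.

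**Figure D4:**
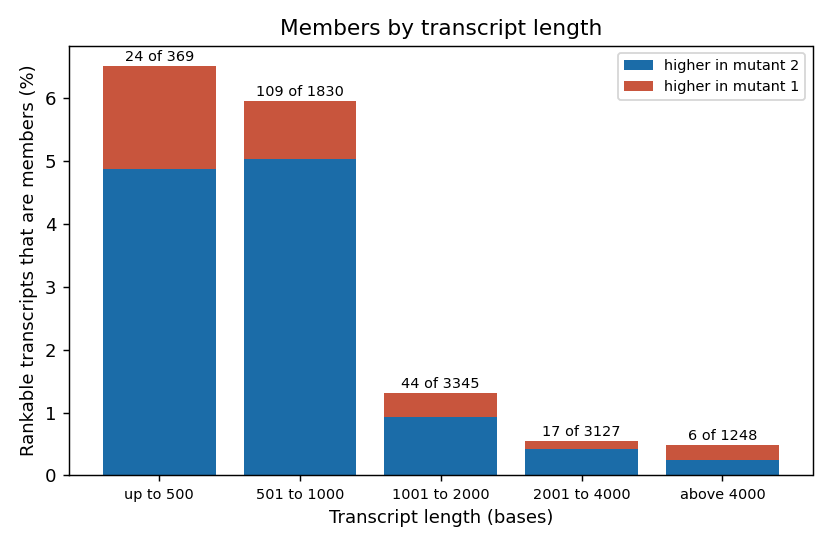
Share of the rankable transcripts in each length class that are members, in percent, split by the mutant library in which they were higher; numbers above the bars give members of rankable transcripts. The share is 6.50% up to 500 bases and 0.48% above 4000 bases.

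The rule set limits on the wild-type level but did not rank by it. Members had a median of 20.8 TPM in wild type, and the rankable transcripts 13.3 TPM. Of the rankable transcripts with 100 TPM or more in wild type, 29 of 667, or 4.35%, were members, against 46 of 3619, or 1.27%, of those with 5 to 10 TPM. At 100 TPM or more 25 members were higher in mutant replicate 2 and 4 in mutant replicate 1, and at 5 to 10 TPM 27 and 19. The minimum of 1 TPM in both mutants limited how far a low transcript could fall in a mutant library. It set no limit on a rise: the member at rank 1, with 7.27 and 7.92 TPM in wild type, reached 6859 TPM in mutant replicate 1.

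Nearly all members had estimates that the quantification program had divided. A read that matches several transcripts, such as isoforms of a gene or copies in a gene family, is shared out among them, which leaves estimated counts that are not whole. Of 191 members with under 10000 counts in both mutant libraries, 1 had whole estimates, to within 0.005, in both, or 0.524%, against 2182 of 9590 rankable transcripts, or 22.8%. The difference was present in short and long transcripts: 1 of 129 members of up to 1000 bases was whole against 457 of 2139 rankable transcripts, and all 62 assessed members above 1000 bases were divided, against 1725 whole of 7451 rankable. Seen from the other side, a mutant ratio of 2-fold or more was seen in 12 of the 2182 rankable transcripts with whole estimates, or 0.55%, and in 446 of the 7408 with divided ones, or 6.02%. The median ratio was similar, 1.14-fold for whole and 1.19-fold for divided estimates, as were the median lengths of 1716 and 1842 bases and the median wild-type levels of 12.8 and 12.7 TPM. The 1 whole member, of 105 bases, rested on 3 estimated counts in mutant replicate 2 and 22 in mutant replicate 1, against 14 and 21 in wild type. What share of a member's reads was divided is not given by the files, and the part of that division in the ratios was not tested.

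The minimum in the mutants kept further transcripts off the list. With steady wild-type levels of at least 5 TPM, 420 transcripts had under 1 TPM in at least 1 mutant library and so could not be ranked. Of these, 84 had at least 5 TPM in mutant replicate 2 and under 1 TPM in mutant replicate 1, against 16 the other way round, and 158 were under 1 TPM in both. All 84 were low in mutant replicate 1 by the limits that picked them. In mutant replicate 2, 53 of the 84 were within 2-fold of wild type, as in the commonest pattern, and 30 were low. Among the 133 abundant transcripts that met the other limits, 4 passed the members' ratio, all higher in mutant replicate 2.

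The wild-type libraries differed less from each other under the same kind of ranking. With the genotypes exchanged, that is with steady mutant levels and ranking by the ratio of wild-type replicate 2 to replicate 1, 10219 transcripts were rankable. The mutant ranking reached 665-fold at rank 1, 19.8-fold at rank 10, 4.38-fold at rank 100 and 2.96-fold at rank 200, and the wild-type ranking 8.55-fold, 3.82-fold, 2.26-fold and 1.99-fold at the same ranks. The ratio at rank 200 of the mutant list, 2.96-fold, was taken as a limit. Between mutants 200 of 9919 transcripts, or 2.02%, reached it by construction. Between wild-type libraries 29 of 10219, or 0.284%, reached it. The median ratio over all transcripts that could be ranked was no larger in mutants, at 0.23 on the log2 scale against 0.26 in wild type. Of the wild-type list 30 of 195 assessed transcripts had whole estimates, against 1 of 191 members, and its median length was 1274 bases against 828. In that list 32 of 200 were higher in replicate 2, against 157 of the 200 members. Among the 9919 transcripts rankable for the mutant list, 1705 were higher in wild-type replicate 2 and 3420 in mutant replicate 2.

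**Figure D5:**
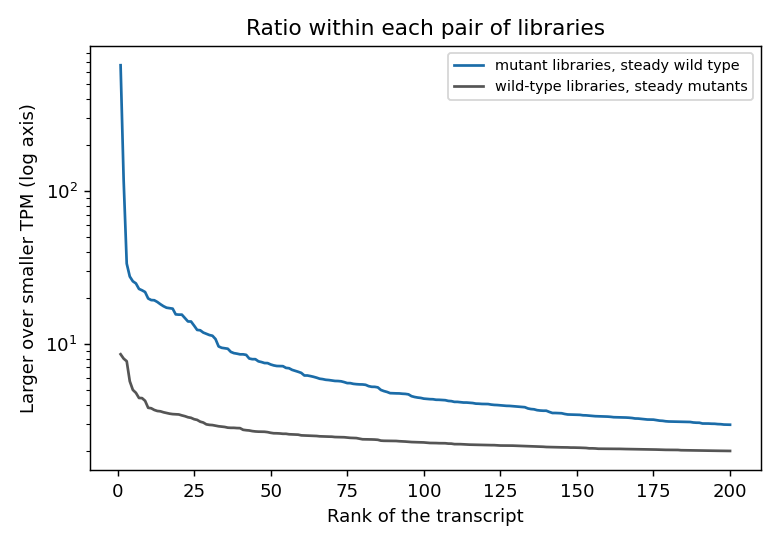
Larger over smaller TPM (log axis) by rank, for the 200 members (mutant libraries, steady wild type) and for the 200 transcripts chosen the same way between the wild-type libraries (steady mutants). The mutant curve lies above the wild-type curve from rank 1 (665- against 8.55-fold) to rank 200 (2.96- against 1.99-fold).

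The study compared mutant with wild-type larvae, and the members entered that comparison with a wide spread on the mutant side. The quasi-likelihood test of edgeR on all transcripts that passed its filter called 8 of the 200 members, all of which were tested, at a Benjamini-Hochberg adjusted p under 0.05. Over all 39773 tested transcripts 19.7% were called, 9.5% higher and 10.2% lower in mutants, and over the rankable transcripts 32.3%. Of the 8 members called, 1 was higher and 7 were lower in mutants. The rule chose for a large mutant spread, which enters the test, and nothing is read from the low count. The approximate SE of the log2 fold change had a median of 0.77 over the members and 0.16 over the rankable transcripts. The median log2 fold change of mutant over wild type was -1.19 over the members, against -0.26 over the rankable and -0.01 over all tested transcripts. In 114 members (57%) both mutant values lay below both wild-type values and in 4 (2%) above, against 41.1% and 32.0% of the rankable transcripts. Choice for a wide mutant spread enters these shares too, and nothing is read from them.

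The members that passed had mutant values far from wild type in both libraries. The 1 that rose in mutants, of 2053 bases at rank 179, had 173 TPM in mutant replicate 2 and 539 TPM in mutant replicate 1, against 9.82 and 8.66 TPM in wild type. Its log2 fold change was 5.06 with an approximate SE of 0.64 (edgeR adjusted p = 0.022). Of those that fell, a 785-base transcript at rank 140 had 29.8 TPM in mutant replicate 2 and 8.16 TPM in mutant replicate 1, against 643.5 and 585 TPM in wild type. Its log2 fold change was -5.18 with an approximate SE of 0.80 (edgeR adjusted p = 0.029). A 775-base transcript at rank 104 had 35.8 TPM in mutant replicate 2 and 8.31 TPM in mutant replicate 1, against 607 and 511 TPM in wild type, at -4.82 with an approximate SE of 0.87 (edgeR adjusted p = 0.037). For all 3 the groups do not overlap, and the distance between genotypes on the log2 scale exceeded that between the mutant libraries. The other 5 fell by 2.72 to 3.43 on the log2 scale, with edgeR adjusted p from 0.037 to 0.048.

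Which mutant library was kept decided how many members were called. With mutant replicate 1 alone against both wild-type libraries, edgeR called 9 members higher and 147 lower, and with mutant replicate 2 alone 6 higher and 53 lower; over all transcripts 17.5% and 9.24% were called. The rule used these same values, so the counts describe the members and test nothing. Leaving out either wild-type library ended every edgeR call, over all transcripts (0% called) as among the members, of which 6 without replicate 1 and 5 without replicate 2 had an unadjusted p under 0.05. DESeq2 called 12 and 13 members in these fits, and 11.2% and 10.9% of all transcripts. With the replicate number as a block, edgeR called 0 members and 0% of all transcripts, with 23 members at an unadjusted p under 0.05, and DESeq2 called 67 members and 31.8% of all transcripts.

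When only transcripts with whole estimates in both mutants were ranked, 48 of the top 200 were higher in mutant replicate 2, but the list then also reached down to 1.39-fold, and 1 of its transcripts was a member. Of all 2182 rankable transcripts with whole estimates 30.25% were higher in mutant replicate 2, and of the 7408 with divided ones 36.47%. At 2-fold or more, 5 of 12 transcripts with whole estimates and 308 of 446 with divided ones were higher in mutant replicate 2, and 12 are too few to compare. Under the other ways of choosing the list, between 63.5% and 86.5% of it was higher in mutant replicate 2.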

How the data were processed

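Poly(A) libraries of 4 samples were analysed, 2 mutant and 2 wild type. The tools in the submitters' processing notes are bcl2fastq 2.20, kallisto 0.46.0 and DESeq2 2.11.40, with GRCz11 and danRer11 as genome builds, and no annotation release. Each estimated count in the authors' deposited tables is a raw, unscaled kallisto value per transcript. Each deposited TPM, also from the authors, is that value per base of effective length, on a scale of 1000000 per library. The gene name table holds 29201 gene identifiers, none of them a transcript identifier, so the gene lists foreseen were not used.

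The rule was applied to TPM as deposited. Estimated counts were rounded and tested with edgeR 4.0.16 in R 4.3.3: filterByExpr (minimum count 10, total 15), TMM, robust quasi-likelihood fit, group as the only term, Benjamini-Hochberg adjustment over 39773 transcripts, threshold 0.05. The approximate SE is the absolute log2 fold change over the square root of F. Alternatives used DESeq2 1.42.0 and limma 3.58.1 (log2 of TPM with a pseudocount of 1 or 0.1). Both scripts were tested on simulated data. Figures used matplotlib 3.10.9.

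Depth ranged from 31653921 to 42901442 counts. The lower mutant count of a member had a median of 105 and was under 50 in 61 of the 200. Over the 9919 rankable transcripts the median was 665, and 244 were under 50. Choice for a wide mutant ratio enters this difference. Intervals cover counting error only. The members, lists and tests were chosen with earlier results of these data known. The naming rule was the 2 largest ratios per direction where no table gives gene names; other members, and the 3 called members given with values, were picked after their values were seen. No label ties the shared replicate numbers to a clutch or day.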

Additional observations from a re-analysis of the deposited data

How the results depend on the processing

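Of the 200 members, 157 were higher in mutant replicate 2 and 155 had only 1 mutant library at least 2-fold from wild type. By construction these counts changed to 81 and 79 in a list of 100 and to 279 and 276 in a list of 400. Among whole estimates only they were 48 and 57. Under the other alternatives both stayed within 1.5 times; leaving out a wild-type library gave 153 and 154 (replicate 1) or 161 and 134 (replicate 2). The list itself was less steady: 71 members remained with at least 5 TPM required in both mutants, 94 with a wild-type ratio of at most 1.2, and 190 after centring the ratio. The option of keeping 1 transcript of each identical set was added after seeing the data, as were the DESeq2 fits with a block or a library left out and the crossed block.

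With 1 member called higher and 7 lower, DESeq2 called 3 and 27 (28.2% of all transcripts, against 19.7% with edgeR), limma called 12 lower on log2(TPM + 1) and 2 lower on log2(TPM + 0.1) (15.7% and 9.41% of all transcripts), and the other scalings and filters stayed within 1.5 times. The filter of 1 CPM in all 4 libraries tested 157 members. Leaving out 1 library gave 0 to 9 higher and 0 to 147 lower with edgeR, and 1 to 14 higher and 11 to 165 lower with DESeq2, whose counts without mutant replicate 1 were 6 and 68; a lone library was given the other genotype's spread. With the replicate block edgeR called 0 and 0 (0% of all transcripts) and DESeq2 2 and 65 (31.8%), and a crossed replicate block gave 1 and 1 (edgeR, 14.8%). Same-numbered libraries deviated from their group means with a correlation of -0.166, and no label ties the numbers together, so they give no pairing. The cause of these changes was not tested. Sums per gene were not run, for want of a pairing of transcripts with genes.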
